A study of Bos taurus with 4 samples.

Results

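GJA1 and GJA4 are 2 of the connexin genes, which encode the subunits of gap junction channels. They were followed here in bovine (Bos taurus) embryos of 8 to 16 cells, collected on day 3 after insemination. Every row of the expression table whose RefSeq accession carries the symbol GJA1 or GJA4 was taken, which gave 1 row for each gene (2 of 14517 transcript rows). Rows with a symbol starting with GJA, GJB, GJC, GJD or GJE served for comparison, and 10 such rows of 9 further genes are reported here. Both genes were selected on their FPKM difference between the groups, which was already known. Their values in that contrast are therefore given as a description, without a test.

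The table covers a single experiment on polyadenylated RNA of whole embryos. Zygotes received either negative control siRNAs (NC, 2 libraries) or siRNAs aimed jointly at KDM5A, KDM5B and KDM5C (KDM5_KD, 2 libraries), and no untreated embryos were included. The siRNAs lower messenger RNA for a limited time and leave the genes intact. The labels do not say how many embryos made up a library or whether libraries came from separate batches of embryos, so the spread between libraries may be partly technical. For KDM5_KD replicate 2 the title names a Kdm5 knockdown and the treatment entry names KDM6 siRNAs. It was kept where its title puts it, and results are given with and without it where it matters. KDM5 enzymes are demethylases of histone H3 lysine 4, whose trimethylated form marks active promoters.

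Connexins assemble into hemichannels in the cell membrane, and hemichannels of touching cells dock to form a gap junction. Ions, metabolites and second messengers such as cyclic nucleotides pass through it. GJA1 is the most widely expressed connexin gene, and in the ovarian follicle it couples granulosa and cumulus cells with each other. GJA4 is the connexin gene of the junctions between oocyte and cumulus cells, and it is also expressed in arterial endothelium. After fertilization these junctions are gone, and blastomeres form new gap junctions with each other around compaction.

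FPKM (fragment numbers divided by transcript length and by the library's mapped fragments) summed to between 283347 and 322267 per library. Absolute depth is unknown. From the steps between low values, the libraries had between 0.681 and 1 times the depth of NC replicate 2, the deepest. As a check of the labels, KDM5A was at 28.4 and 27.1 FPKM in NC against 10.5 and 10.1 FPKM in KDM5_KD replicates 1 and 2. KDM5C was at 28.1 and 40.6 FPKM against 15.1 and 17.8 FPKM. No value is given here for KDM5B, so its knockdown was not checked. KDM6A was at 7.63 and 11.3 FPKM against 7.90 and 9.29 FPKM, so in KDM5_KD replicate 2 it lay within the range of the NC libraries.

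GJA1 (NM_174068) was present in every library and higher in both knockdown libraries. It was at 6.53 and 5.27 FPKM in NC replicates 1 and 2, and at 20.2 and 22.1 FPKM in KDM5_KD replicates 1 and 2. The groups did not overlap, and the libraries within each group lay close together. The group means were 5.90 ± 0.892 and 21.2 ± 1.36 FPKM (SD, n = 2 each), a 3.59-fold ratio. Between single libraries the ratio ran from 3.09 to 4.20. On the log2(FPKM + 1) scale, which understates the change of low values, the difference of group means was 1.69. Of the 8970 transcripts with a mean of at least 1 FPKM, 97 had a larger positive difference.

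In each library GJA1 can also be placed among these 8970 transcripts by its level in FPKM. It exceeded 40.1% and 36.2% of them in NC replicates 1 and 2, and 66.9% and 67.8% in KDM5_KD replicates 1 and 2. GJA1 was thus below the median of these 8970 transcripts in NC and above it in KDM5_KD. Rows with a mean under 1 FPKM are not among them, so its place among all rows would be higher.

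GJA4 (NM_001083738) was below 1 FPKM in both controls. It was at 0.569 and 0.403 FPKM in NC replicates 1 and 2, and at 11.3 and 16.5 FPKM in KDM5_KD replicates 1 and 2. The control libraries were alike, and the lower knockdown library was 19.9 times the higher control library. The group means were 0.486 ± 0.117 and 13.9 ± 3.65 FPKM (SD, n = 2 each), a 28.6-fold ratio, and ratios between single libraries ran from 19.9 to 40.9. On the log2(FPKM + 1) scale the difference was 3.31, and 5 transcripts had a larger one. With a pseudocount of 0.1 it was 4.57, because the control level is low.

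GJA4 passed the minimum mean of 1 FPKM only through the knockdown libraries. Among the tested transcripts it exceeded 0.647% and 1.65% of levels in NC, against 51.7% and 60.4% in KDM5_KD. The tested transcripts leave out rows that are low in every library. Of all 14517 rows, 2627 and 2552 were listed at 0 in NC replicates 1 and 2. For both genes the knockdown libraries lay above both controls. That was the case for 35.1% of all transcripts tested, while 15.6% lay below both controls. Leaving out KDM5_KD replicate 2, whose labels disagree, gave differences of 1.63 for GJA1 and 3.05 for GJA4. Without NC replicate 2 they were 1.56 and 3.23, and without NC replicate 1 they were 1.82 and 3.39. In the RefSeq gene table no other gene overlaps GJA1 or GJA4. In RNA from whole embryos, more cells of a type and more RNA per cell cannot be told apart.

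**Figure D1:**
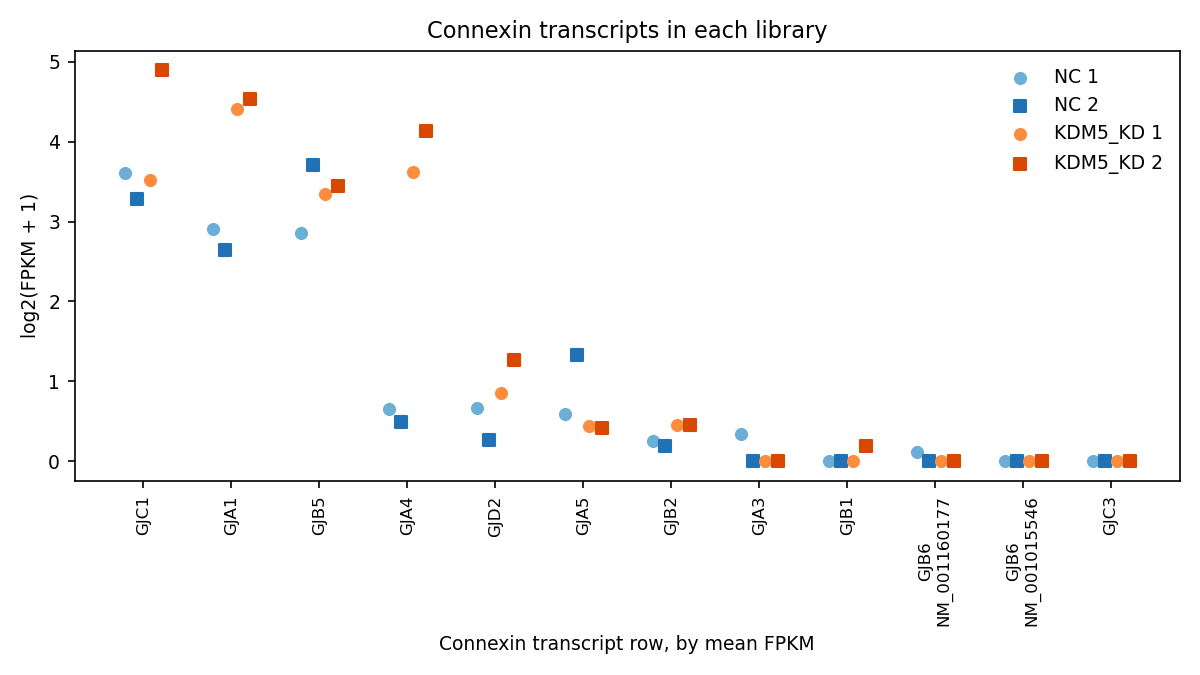
Level of each connexin transcript row in the 4 libraries, on the log2(FPKM + 1) scale, ordered by mean FPKM. Points are single libraries (NC blue, KDM5_KD orange; circles replicate 1, squares replicate 2). GJA1 and GJA4 show orange points clear above blue ones. GJB5 has interleaved points, and GJC1 has a single high library at 28.7 FPKM.

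The other connexin rows reported here comprised 2 at several FPKM in all libraries and 8 below the minimum mean. GJB5 is a connexin gene of epidermis and, in the mouse, of trophoblast, and GJC1 is expressed in the embryonic heart and in smooth muscle. Neither was called in limma (adjusted p of 0.886 and 0.421, Benjamini-Hochberg over all 8970 transcripts). Neither had an unadjusted p under 0.05, and in both the groups overlapped. Among all transcripts 0.279% were called (0.19% higher and 0.0892% lower) and 17.5% had an unadjusted p under 0.05, so a count of 0 in 2 is near the background. The median difference of all transcripts was 0.09.

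GJB5 was at 6.26 and 12.1 FPKM in NC, with both knockdown libraries (9.17 and 9.86 FPKM) between them. Its log2 difference was 0.11 (SE 0.295), with the opposite sign after quantile normalization (-0.08) and without NC replicate 1 (-0.32). The controls thus differed more from each other than the group means did.

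GJC1 was at 11.2 and 8.74 FPKM in NC against 10.5 and 28.7 FPKM in KDM5_KD. Its high value came from KDM5_KD replicate 2 alone, while replicate 1 lay between the controls. The log2 difference of 0.76 (SE 0.432, limma adjusted p of 0.421) was 0.07 without that library and 1.44 without KDM5_KD replicate 1.

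The 8 rows below the minimum reached at most 1.52 FPKM in any library. GJA5, a connexin gene of arterial endothelium and atrium, was at 0.501 and 1.52 FPKM in NC against 0.356 and 0.341 FPKM in KDM5_KD. Both knockdown libraries lay below both controls, the opposite order to GJA1 and GJA4. GJD2, the main connexin gene of electrical synapses between neurons, was at 0.589 and 0.201 FPKM against 0.816 and 1.41 FPKM. GJB2, a connexin gene of the inner ear and skin, was at 0.188 and 0.147 FPKM against 0.366 and 0.376 FPKM. In GJD2 and GJB2 the knockdown libraries were the higher ones, at levels where few fragments decide a value. The lens connexin gene GJA3 was listed at 0.273 FPKM in NC replicate 1 and at 0 in the other libraries. GJB1, expressed in liver and Schwann cells, was listed at 0.142 FPKM in KDM5_KD replicate 2 and at 0 elsewhere. Both GJB6 rows were listed at 0.0835 FPKM or less in NC replicate 1 and at 0 elsewhere, and GJC3 was listed at 0 throughout.

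FPKM is scaled to transcript length, and on that basis levels were set side by side between genes. Other differences between genes in how fully their transcripts are read were not checked. The order, shares and ratios between genes given below are therefore approximate. Among the connexin rows reported here, the order of mean levels in NC began with GJC1, GJB5 and GJA1, and the libraries of each neighbouring pair overlapped. Below GJA1 came a gap, since its lower library (5.27 FPKM) was above the higher GJA5 library (1.52 FPKM). GJA4 came after GJA5 and before GJD2, and overlapped with both. In KDM5_KD the order began with GJA1, GJC1 and GJA4, again with overlap between neighbours, and both GJA4 libraries were above both GJB5 libraries. GJA4 had moved from the fifth place to the third, and GJA1 from the third to the first.

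The make-up of these connexin transcripts differed accordingly. The 12 connexin rows reported here came to 26.2 and 28.4 FPKM in NC replicates 1 and 2, and to 52.7 and 79.4 FPKM in KDM5_KD replicates 1 and 2. Without GJA1 and GJA4 the sums were 19.1 and 22.7 FPKM against 21.2 and 40.8 FPKM. In KDM5_KD replicate 1 the remaining rows therefore summed to a value between the controls, and the higher sum in replicate 2 includes its 28.7 FPKM of GJC1. GJA1 made up 24.9% and 18.6% of the 12-row sum in NC and 38.3% and 27.9% in KDM5_KD. GJA4 made up 2.17% and 1.42% in NC, and 21.5% and 20.8% in KDM5_KD. The share of GJB5 was 23.9% and 42.6% in NC and 17.4% and 12.4% of the higher sums in KDM5_KD, while its FPKM overlapped between the groups. The share of GJC1 was 42.8% and 30.8% in NC and 19.9% and 36.1% in KDM5_KD.

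The balance between the pair shifted as well. GJA1 was at 11.5 and 13.1 times the FPKM of GJA4 in NC replicates 1 and 2. In KDM5_KD replicates 1 and 2 it was at 1.78 and 1.34 times.

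**Figure D2:**
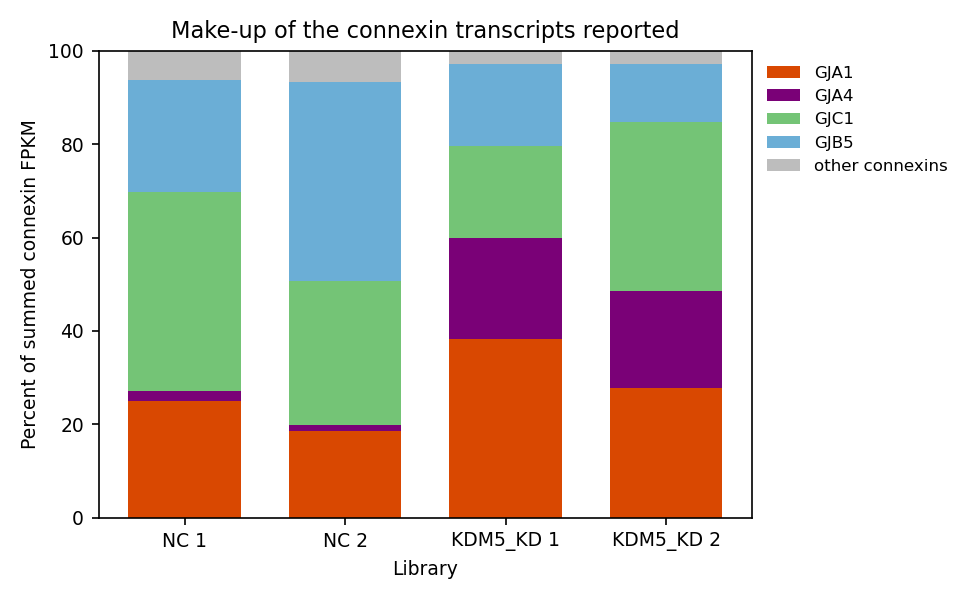
Percent of the FPKM summed over the 12 connexin rows reported here (vertical axis) taken by GJA1, GJA4, GJC1, GJB5 and the others, as 1 stacked bar per library. GJA4 is a thin band of 2.17% and 1.42% in the NC bars and takes 21.5% and 20.8% of the KDM5_KD bars.

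The genes beside GJA1 were compared after the values had been seen. Those beside GJA4 are not reported here. In the gene order of the RefSeq assembly ARS-UCD2.0, no connexin gene is among the 5 protein-coding genes on either side of GJA1. HSF2, a heat shock transcription factor gene, adjoins GJA1. Positions are left out, since the sources used here do not give the build used for the FPKM. Of these 10 genes 7 had a row and 5 were tested, with none called in limma and none with an unadjusted p under 0.05. Their log2 differences lay between -0.30 (HSF2) and 0.61 (PKIB). HSF2 was at 11.3 and 12.3 FPKM in NC against 9.56 and 9.28 FPKM in KDM5_KD, lower in both knockdown libraries (-0.30, SE 0.161, limma adjusted p of 0.399). PKIB, which encodes an inhibitor of protein kinase A, was at 1.37 and 1.01 FPKM against 4.02 and 1.23 FPKM, so its groups differed through KDM5_KD replicate 1 alone.

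Genes that assemble, move, phosphorylate or degrade connexins were then examined as a list of 49 genes, of which 43 had a row and 39 were tested. None was called in limma (lowest adjusted p of 0.107), beside 0.279% of all transcripts. Of the 39, 6 had an unadjusted p under 0.05, beside 17.5% of all transcripts. Both knockdown libraries lay above both controls for 21 of the 39 (53.8%, beside 35.1% of all) and below them for 3 (beside 15.6% of all). Their median log2 difference was 0.21, and 29 were above 0. Without NC replicate 1, 3 of the 39 were called higher, namely CDH2, DBN1 and CTNNA1. In that fit 323 of all 8970 transcripts were called higher.

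Of the scaffold and adhesion genes 10 were tested, with a median of 0.25, and 4 had an unadjusted p under 0.05 (17.5% of all transcripts did). CDH2, which encodes N-cadherin, was at 6.18 and 2.61 FPKM in NC against 15.8 and 18.3 FPKM in KDM5_KD. Its groups were far apart, but the controls differed from each other as well (log2 difference 1.83, SE 0.335, limma adjusted p of 0.107). DBN1, which encodes the actin-binding protein drebrin, a partner of the GJA1 protein, was at 7.14 and 5.02 FPKM against 12.5 and 13.0 FPKM (0.97, SE 0.207, limma adjusted p of 0.124). CTNNA1, the alpha-catenin gene that links cadherins to actin, was at 13.6 and 8.34 FPKM against 19.5 and 18.9 FPKM (0.79, SE 0.237, limma adjusted p of 0.192). CDH1, the E-cadherin gene needed for compaction, was the most abundant of the list. It was at 126 and 166 FPKM in NC against 127 and 135 FPKM in KDM5_KD, with overlapping groups (-0.14, SE 0.157). CTNNB1, the beta-catenin gene, was at 23.5 and 24.5 FPKM against 27.3 and 29.5 FPKM (0.23, SE 0.133). CDH1 and CTNNB1 were picked for their role, outside the naming rule and after their values had been seen.

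Among the kinase genes, 12 were tested, and the median difference was 0.07. MAPK7 was at 31.5 and 23.8 FPKM in NC against 22.9 and 21.2 FPKM in KDM5_KD (-0.30, SE 0.174, limma adjusted p of 0.434). PRKCD, which encodes a protein kinase C, was at 12.9 and 13.6 FPKM against 10.5 and 11.8 FPKM (-0.23, SE 0.160, limma adjusted p of 0.512). In both the knockdown libraries were the lower ones. SRC, also chosen after its values were seen, phosphorylates the GJA1 protein and was at 4.63 and 7.11 FPKM against 3.31 and 3.69 FPKM (-0.59, SE 0.242). These 3 kinase genes are the 3 of the list that lay below both controls.

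Among trafficking, turnover and transcription genes, JUN had the largest difference. The 5 trafficking genes had a median of 0.24, with 3 above both controls. The 9 tested turnover genes, ubiquitin ligases and endosomal sorting factors among them, had a median of 0.18, with 6 above both controls, where 35.1% of all transcripts lay. Of the 3 tested transcription factor genes, JUN, a subunit of AP-1, was at 4.61 and 4.94 FPKM in NC against 8.22 and 10.4 FPKM in KDM5_KD (0.83, SE 0.196, limma adjusted p of 0.141). SP1, a factor of GC-rich promoters, was at 83.0 and 84.6 FPKM against 89.6 and 78.2 FPKM, with overlapping groups (SE of the log2 difference 0.123). It was named after its values had been seen. Pannexins form channels of a similar shape in single membranes. PANX1 was at 4.31 and 3.12 FPKM against 3.54 and 6.28 FPKM, with overlapping groups (0.30, SE 0.291, limma adjusted p of 0.647). The highest PANX1 value came from KDM5_KD replicate 2, without which the difference was -0.04. PANX2 was at 0.763 FPKM or less in every library, and PANX3 was listed at 0.

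In the follicle, gap junctions carry cyclic nucleotides to the oocyte and hold it in meiotic arrest. A list of 16 genes for this dialogue had 14 genes in the table, as 15 rows, of which 9 were tested. None was called in limma (lowest adjusted p of 0.151), beside 0.279% of all transcripts, and 3 had an unadjusted p under 0.05, beside 17.5%. Of the 9, 6 lay above both controls, beside 35.1% of all. The median difference was 0.34. Without NC replicate 1, GNAS and BMP15 were called higher, in the fit that called 323 of 8970 transcripts higher. GNAS (NM_181021), which encodes the stimulatory G protein subunit, was at 33.8 and 18.4 FPKM in NC against 59.4 and 47.1 FPKM in KDM5_KD (1.05, SE 0.286, limma adjusted p of 0.166). The other GNAS row was at 1.37 to 2.49 FPKM with overlapping groups. PDE8A, a cyclic AMP phosphodiesterase gene, was at 9.53 and 8.64 FPKM against 10.5 and 10.8 FPKM (0.21, SE 0.165). The receptor gene KIT was at 4.57 and 3.17 FPKM against 7.28 and 9.52 FPKM (0.95, SE 0.238, limma adjusted p of 0.151). Its ligand gene KITLG was at 28.4 and 33.5 FPKM against 37.2 and 33.1 FPKM, with overlap. BMP15, an oocyte growth factor gene, was at 118 and 83.8 FPKM against 149 and 172 FPKM (0.68, SE 0.185, limma adjusted p of 0.166).

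**Figure D3:**
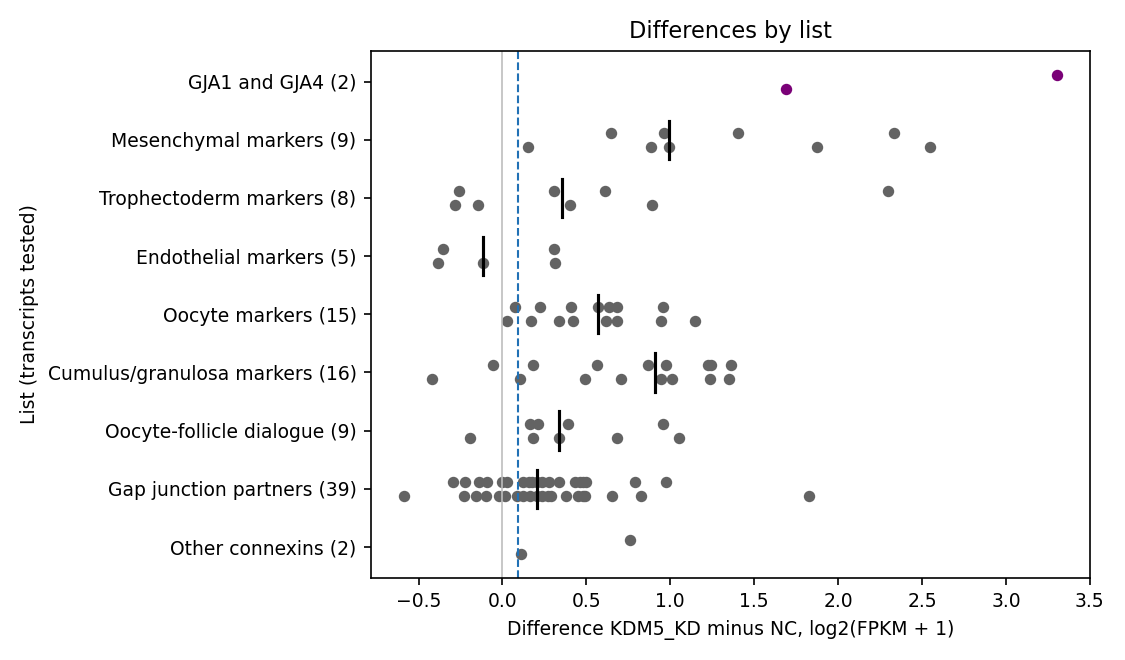
Difference KDM5_KD minus NC on the log2(FPKM + 1) scale (horizontal axis) for the tested transcripts of each list, 1 point per transcript, with the list median as a black bar. The dashed line is the median of all transcripts at 0.09 and the grey line is 0. GJA1 (1.69) and GJA4 (3.31) are shown without a median, and the other connexins are at 0.11 (GJB5) and 0.76 (GJC1).

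Markers of cells that could be present beside blastomeres were measured in the same libraries. Of 24 cumulus and granulosa markers, 17 lay above both controls and 1 below (35.1% and 15.6% of all transcripts). Here and for the other marker lists these counts include rows under the mean of 1 FPKM, which the shares of all transcripts leave out. Their summed level was 78.6 to 92.8 FPKM in NC and 135 to 146 FPKM in KDM5_KD. The 3 most abundant were KITLG, SERPINE2 (17.7 and 14.7 against 29.9 and 24.4 FPKM) and CYP11A1 (8.41 and 3.79 against 12.5 and 17.2 FPKM). FSHR, LHCGR and CYP19A1, the follicle hormone receptors and aromatase, were the 3 of the list below 0.1 FPKM in every library. Of the 16 tested, none was called in limma, 11 had an unadjusted p under 0.05 (17.5% of all), and the median difference was 0.91. Their part in the GJA1 and GJA4 differences was not tested.

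Of 11 mesenchymal markers, 8 lay above both controls and none below (35.1% and 15.6% of all transcripts). Their sum was 65.1 to 135 FPKM in NC and 281 to 285 FPKM in KDM5_KD, and no marker of this list was below 0.1 FPKM throughout. The intermediate filament gene VIM was at 35.6 and 8.09 FPKM in NC against 84.6 and 98.1 FPKM in KDM5_KD. TAGLN, an actin-binding protein gene of smooth muscle, was at 38.0 and 5.29 against 85.7 and 95.6 FPKM. The collagen gene COL1A1 was at 28.4 and 23.9 against 47.7 and 35.8 FPKM. In all 3 genes both knockdown libraries were above both controls. None of the 9 tested was called in limma, and 6 had an unadjusted p under 0.05 (17.5% of all). The part of these genes in the result was not tested.

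Endothelial markers were looked at because GJA4 is also an endothelial connexin gene. Their sum was 12.4 to 13.5 FPKM in NC and 13.3 to 15.4 FPKM in KDM5_KD, and 8 of 15 lay above both controls and 3 below (35.1% and 15.6% of all transcripts). The most abundant, KDR, TEK and CLDN5, were at 3.11 FPKM or less in every library. CDH5, PECAM1 and EMCN were the 3 of the list below 0.1 FPKM throughout. Of the 5 tested, 2 lay above both controls and 2 below, with a median difference of -0.12. None of the 5 was called or had an unadjusted p under 0.05 in limma.

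Oocyte markers, most of them maternal messages that persist in the early embryo, had a sum of 439 to 591 FPKM in NC and 706 to 903 FPKM in KDM5_KD. Of 15 rows 9 lay above both controls and none below (35.1% and 15.6% of all transcripts). DPPA3 (NM_001111109) led with 179 and 128 against 249 and 216 FPKM, followed by BMP15 and OOSP2. The other DPPA3 row was at 34.5 and 36.5 against 32.8 and 40.0 FPKM, with overlapping groups. OOSP2 (NR_024196) was at 81.6 and 59.4 against 93.2 and 196 FPKM. None of the 15 was called in limma, and 6 had an unadjusted p under 0.05 (17.5% of all). Their part in the result was not tested.

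Trophectoderm markers summed to 202 to 215 FPKM in NC and 212 to 226 FPKM in KDM5_KD, with 3 of 11 above both controls and 2 below (35.1% and 15.6% of all transcripts). TFAP2C was at 161 and 182 against 157 and 152 FPKM. GATA2 was at 20.1 and 15.5 against 18.9 and 39.9 FPKM. The keratin gene KRT8 was at 2.86 and 1.10 against 18.2 and 9.23 FPKM (2.30, SE 0.406, limma adjusted p of 0.106), and the interferon tau gene IFNT2 was below 0.1 FPKM throughout. Of the 8 tested none was called in limma, and 2 had an unadjusted p under 0.05 (17.5% of all). Blood markers summed to 8.66 to 35.1 FPKM in NC and 36.4 to 40.3 FPKM in KDM5_KD, most of it from the alpha globin gene HBA (31.5 and 5.08 against 38.3 and 33.1 FPKM), which has a near-identical copy and is uncertain. CD68 was at 2.63 and 2.43 against 1.54 and 2.16 FPKM and SPI1 at 0.757 FPKM or less. The pan-leukocyte gene PTPRC was below 0.1 FPKM throughout. Of the 8 blood markers 1 lay above both controls and 3 below (35.1% and 15.6% of all transcripts). Of the 2 tested, 1 lay above both controls and 1 below, and neither was called or had an unadjusted p under 0.05. The lists share genes: FSHR, LHCGR and KITLG stand in the dialogue and cumulus lists. GDF9, BMP15, KIT and GPR3 stand in the dialogue and oocyte lists. The connexin gene GJA5 also stands in the endothelial list, among its rows below both controls.

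**Figure D4:**
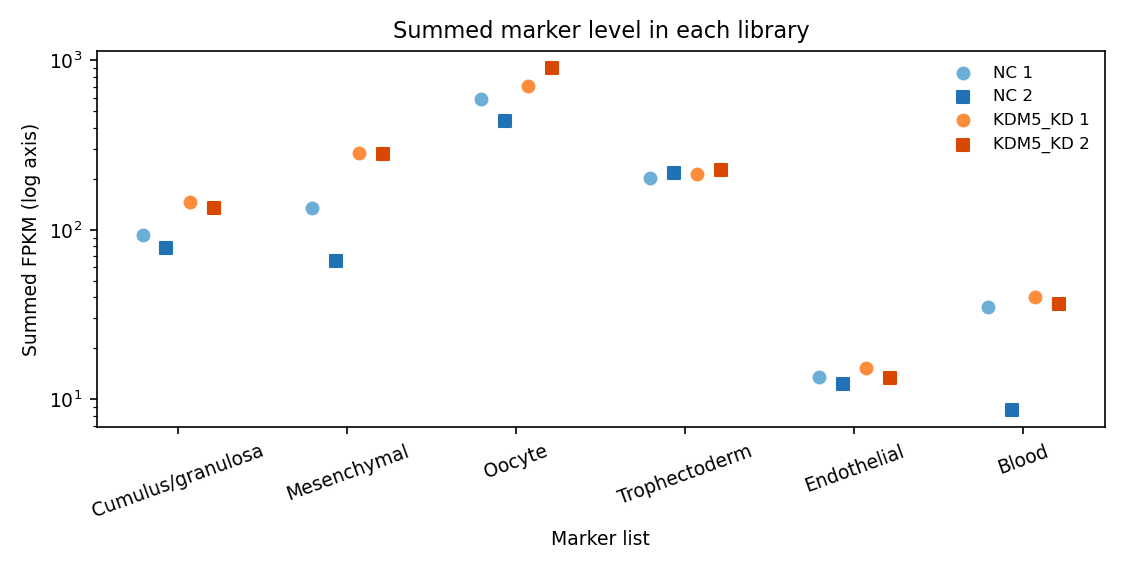
Summed FPKM of each marker list (log axis) in the 4 libraries, colours and symbols as in the plot of connexin levels. The cumulus, mesenchymal, oocyte and blood sums are higher in both KDM5_KD libraries than in both NC libraries. The trophectoderm and endothelial sums overlap between groups, and NC replicate 2 is lowest for all lists except trophectoderm.

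Transcripts with a pattern like that of GJA1 and GJA4 were found by the distance between log2(FPKM + 1) values over the 4 libraries, each transcript centred on its own mean. A distance of 0 is the same pattern. The values were not scaled, so the distance also depends on the size of a difference, on which GJA1 and GJA4 were chosen. Closest to GJA1 was PLOD1 (distance 0.18), a collagen-modifying lysyl hydroxylase gene, at 1.16 and 0.664 FPKM in NC and 4.93 and 4.65 FPKM in KDM5_KD. ZNF385B (0.22), TMIE (0.23), PLP2 (0.23) and PLAC9 (0.25) followed. PLP2, a membrane protein gene, was also close to GJA1 in level, at 8.15 and 5.39 against 20.3 and 22.2 FPKM. ZNF385B, TMIE and PLAC9 were at 1.29 FPKM or less in NC and between 3.11 and 4.82 FPKM in KDM5_KD. PLOD1, ZNF385B, TMIE and PLAC9 passed the minimum mean of 1 FPKM only through the knockdown libraries. The log2(FPKM + 1) scale understates the change of low values, so their small distance does not mean the same FPKM ratio as GJA1.

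GJA4, whose log2 difference was exceeded by 5 transcripts only, had no such close companions, and 4 of its 5 nearest transcripts are given. Nearest was R3HDM2 at a distance of 0.60, with 0.610 and 0.536 FPKM in NC and 8.48 and 10.5 FPKM in KDM5_KD. GLRX (0.84), a glutaredoxin gene, was at 0.120 and 0.356 against 8.14 and 6.56 FPKM. MRO (0.98) and CTHRC1 (1.04) followed, with 0.739 and 0.366 against 5.54 and 8.30 FPKM, and 1.91 and 0.249 against 10.6 and 11.3 FPKM. Each of these 4 had a smaller log2 difference than GJA4, between 2.34 and 2.75. R3HDM2, GLRX and MRO, like GJA4, passed the minimum mean of 1 FPKM only through the knockdown libraries. GJA1 and GJA4 were 1.64 apart, since their differences differ in size.

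**Figure D5:**
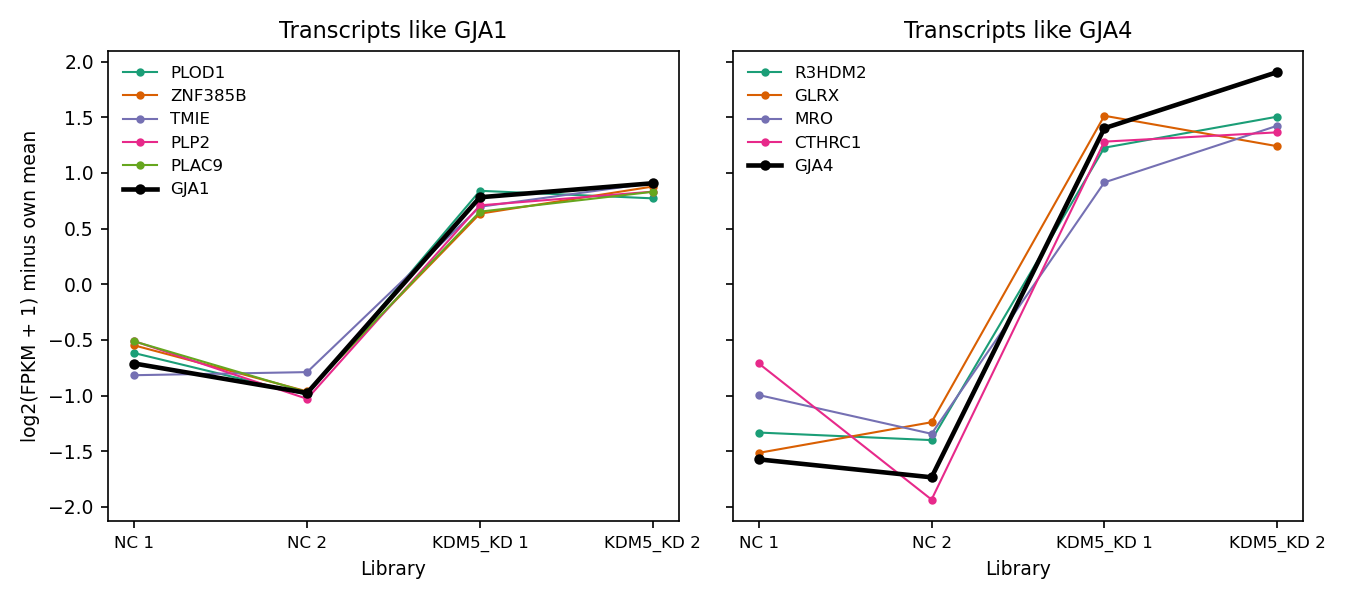
Patterns of 5 transcripts like GJA1 (left) and 4 like GJA4 (right), as log2(FPKM + 1) minus each transcript's own mean (vertical axis) in the 4 libraries. Lines join the values of 1 transcript and do not stand for an order of libraries. The GJA1 companions lie nearly on its black line, while the black line of GJA4 goes from below -1.5 to above 1.4 and its companions span a smaller range.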

How the data were processed

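The authors' deposited table holds FPKM, 1 row per RefSeq transcript and 1 column per library. The submitters' processing notes name Trimmomatic, HISAT2, featureCounts and Cufflinks, without versions or roles. The genome build and annotation are not given in the sources used here. The libraries were made from poly(A) RNA with PCR amplification, per the labels' protocols, which do not mention strand. Steps between low values gave relative depth only, so no counts were recovered and no count model was used.

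Symbols came from a RefSeq gene table of ARS-UCD2.0 (14295 of 14517 rows matched). That table holds 21 connexin genes, of which 14 had a row (15 rows), and the other 7 were not analysed here. A few rows that the naming rule covers are not reported here. Log2(FPKM + 1) values of all 4 libraries were fitted with limma 3.58.1 (R 4.3.3, eBayes with trend) for the 8970 rows with a mean of at least 1 FPKM. P-values were adjusted by Benjamini-Hochberg over all of them and called under 0.05. The fit was also run on simulated data with large differences only, which does not bear on the smaller differences that were not called. Plots were drawn with matplotlib 3.10.9 under Python 3.11.15, and tables were handled in pandas 2.3.3. Alternatives were another pseudocount, other filters, 2 scalings, 2 variance settings, the replicate number as a block, and leaving out each library.

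Members, lists and tests were chosen with earlier results of these data known. Named genes are all connexins reported here, the pannexins, the siRNA targets KDM5A and KDM5C, and KDM6A. Also named are the 5 transcripts nearest to GJA1 and to GJA4 (no LOC symbols, with 4 of those near GJA4 given). Further named genes are up to 4 list genes per direction with a mean of at least 5 FPKM and groups that do not overlap. The 3 most abundant markers of each list are named as well. Exceptions are marked in the text. No sequences of these genes were used here.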

Additional observations from a re-analysis of the deposited data

How the results depend on the processing

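GJA1 and GJA4 were higher in KDM5_KD under every alternative run. The GJA1 difference was 1.83 with a pseudocount of 0.1, 1.59 with median-ratio scaling and 1.54 after quantile normalization, which shifted the median of all transcripts by -0.14. It ranged from 1.56 to 1.82 when single libraries were left out. The GJA4 difference was 4.57 with a pseudocount of 0.1, 3.24 and 3.14 with the scalings, and 3.05 to 3.56 with single libraries left out.

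No other connexin row reported here was called under any of the alternatives fitted on all 4 libraries. Only 2 of these rows were tested in each, or 9 without a filter, so a count of 0 is near the background. Partner genes called higher ranged from 0 to 3 and dialogue genes from 0 to 2 with single libraries left out, and both were 0 otherwise. Over all transcripts, 17 were called higher and 8 lower. Without a filter these counts were 2 and 1, with a mean of at least 5 FPKM 11 were higher, without a trend 6, with robust eBayes 37. With the replicate number as a block they were 8 and 4. The block changed no call of a connexin, partner or dialogue gene, and KDM5A had a limma adjusted p of 0.0591 with it against 0.0333 without. KDM5A was also not called without a filter (limma adjusted p of 0.167) or without a trend (0.0605). It stayed called with the other pseudocount, the stricter filter, both scalings and robust eBayes. KDM5C was called in none of these fits (limma adjusted p of 0.123 in the main one). Same-numbered libraries deviated together with a correlation of 0.229 across transcripts, but the labels give no shared origin. With single libraries left out, 3 to 323 were higher and 3 to 17 lower, the highest without NC replicate 1. In these fits the lone library is assumed to vary like the other group. The causes were not tested.

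Differences that changed sign were GJB5 after quantile normalization (-0.078) and, with single libraries left out, GJB5 (-0.32 to 0.53), PANX1 (-0.043 to 0.64) and KDM6A (-0.37 to 0.15). KDM5A stayed between -1.48 and -1.32. Read counts are unknown, so rows below 1 FPKM carry no stated precision.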
